A study of Fragaria vesca with 9 samples.

Results

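MADS-box and SBP proteins are 2 families of plant transcription factors, taken here as every gene whose listed description holds the Pfam domain PF00319 (the MADS-box domain) or PF03110 (the SBP domain). The authors' table for Fragaria vesca, the woodland strawberry, lists 34777 genes, of which 90 are members: 77 MADS-box genes and 13 SBP genes, with 0 genes holding both domains. Expression was measured by sequencing poly(A) RNA from fruits picked 26 days after anthesis. The 9 libraries form 3 groups of 3: the mutant Fvmate51-1, the mutant Fvmate51-2 and wild type (WT). Both mutants are of FvMATE51, which the series describes as a vacuolar membrane protein. The labels give no further allele or treatment, do not say what the mutations are, and do not say whether a replicate is a separate plant or whether fruits were pooled. The p-values therefore measure the spread between these libraries, which may be technical. No listed description names FvMATE51, so its transcript was not checked here.

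MADS-box proteins bind DNA as dimers and larger complexes and are best known for setting the identity of floral organs. Type II members carry a K-box, through which they pair with each other. They include the A class (APETALA1, FRUITFULL), the B class (APETALA3, PISTILLATA), the C and D classes (AGAMOUS, SHATTERPROOF, SEEDSTICK) and the SEPALLATA (E class) proteins that join the others in complexes. Several of these act again in fruit: SEPALLATA-type and AGAMOUS-type genes are needed for normal ripening in tomato, and a SEPALLATA-type gene for ripening of the strawberry receptacle. SBP proteins, also called SPL proteins, time the change from juvenile to adult growth and to flowering, and many of their transcripts are cut by the microRNA miR156. Some SPL proteins bind the promoters of MADS-box genes in Arabidopsis. Gene names below are the best Swiss-Prot matches that the authors list, mostly from other species, and are given with the strawberry gene ID.

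Values are FPKM as the authors deposited them, fragments divided by the length of the gene and by the depth of the library, so levels can be set side by side between genes. A gene was tested if 3 or more of the 9 libraries reached 1 FPKM, which left 15890 genes. Log2 changes are on FPKM + 1, which makes them smaller than the ratio of means for genes near 0. A gene was called at an adjusted p under 0.05 from limma, with adjustment over all genes tested. Listed genes held 31587667 to 51649115 fragments per library. Wild type replicate 3 and Fvmate51-1 replicate 2 were known to stand apart from the other libraries of their groups, and results that rest on them are given without them too. An amount of RNA from whole fruit cannot tell fewer cells of a type from less RNA per cell.

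Most members were silent or nearly so in this fruit. Of the 77 MADS-box genes, 11 passed the filter on low values and 66 did not: 38 were at 0 in all 9 libraries, and the other 28 never exceeded 0.805 FPKM. The K-box divided the family. Of 29 MADS-box genes with a K-box, 9 passed and 7 were at 0 throughout, while of 48 without a K-box 2 passed and 31 were at 0 throughout. Type I genes, which lack a K-box and are known mainly from female gametophyte and endosperm, made up 23 of these, of which 1 passed. None of the 9 matches to AGL15 or AGL18, genes of embryo and floral timing in Arabidopsis, passed, and the highest of their values was 0.805 FPKM. Of the 13 SBP genes, 5 passed, 7 lay above 0 but under the filter with a highest value of 0.595 FPKM, and 1 was at 0 throughout. Counts of changed members below cover only the 11 and the 5 that passed. The others were not all alike, and those with a difference are described further on.

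**Figure D1:**
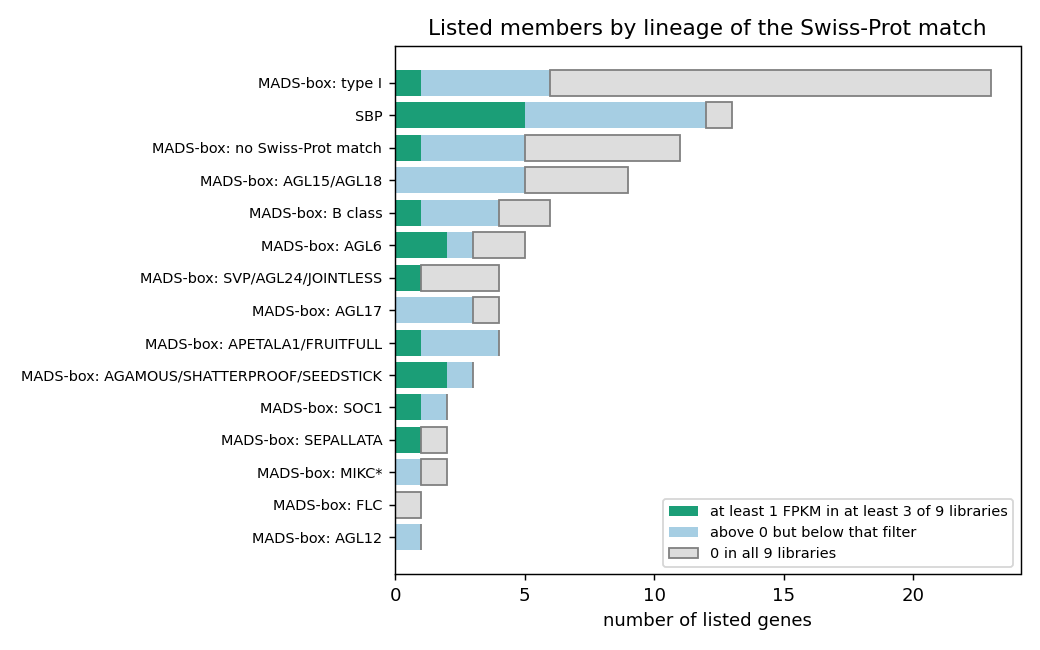
Number of listed MADS-box genes by lineage of the Swiss-Prot match, and of SBP genes, split by expression (x axis: number of listed genes; green: 1 FPKM or more in 3 or more of the 9 libraries; blue: above 0 but below that filter; grey: 0 in all 9 libraries). Of 23 type I genes 17 were at 0 in all 9 libraries, against 1 of 13 SBP genes.

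Among genes with the listed domain, a few type II genes carried nearly all of the MADS-box signal. The sums leave out FvH4_4g23530, a MADS4 match without that domain, which exceeded every member and is described further on. Summed over the family, MADS-box genes reached 299 to 325 FPKM in Fvmate51-1, 297 to 319 in Fvmate51-2 and 287 to 309 in WT. The 3 highest members, matches to AP1, AGAMOUS and MADS1, made up between 83.0% and 86.4% of this sum in every library. SBP genes summed to 75.7 to 79.8 FPKM in Fvmate51-1, 68.6 to 72.2 in Fvmate51-2 and 46.8 to 62.1 in WT, and the mutant libraries did not overlap the WT libraries. The lowest of these WT sums was that of replicate 3.

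Against WT, the called MADS-box genes lay on both sides, and the called SBP genes were all higher in the mutants. For the mean of both mutants, 2 of 11 MADS-box genes were higher, 4 were lower and 5 were not called, where 34.9% of all tested genes were called, 16.8% as higher and 18.1% as lower. In the same contrast 3 of 5 SBP genes were higher and 0 lower, with a median log2 change of 0.45, against 0.00 over all tested genes. The MADS-box median was −0.06. In Fvmate51-1, 3 MADS-box genes were higher and 5 lower, and 4 SBP genes were higher and 0 lower, beside 35.5% of all genes called (16.5% higher and 19.0% lower). In Fvmate51-2, 2 MADS-box genes were higher and 3 lower, and 3 SBP genes were higher and 0 lower, beside 30.4% of all genes (15.3% higher and 15.1% lower). With members this few, these shares are descriptions. Without both libraries that stood apart, 6 MADS-box genes were called for both mutants and 6 in each mutant alone, and 3 SBP genes were called for both mutants, 3 in Fvmate51-1 and 2 in Fvmate51-2. That fit called 5752 of all 15890 genes for both mutants, 5964 in Fvmate51-1 and 5666 in Fvmate51-2. With all libraries the numbers were 5545, 5645 and 4832. The 2 contrasts share the WT libraries.

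The direction of calls over all genes depended on scaling. In Fvmate51-1 against WT, 2618 genes were higher and 3027 lower as deposited, 3417 and 2108 after rescaling each library to the same FPKM sum (TPM), and 3381 and 2552 with voom on recovered fragments. For both mutants together the TPM split was 3095 higher and 2270 lower, against 2674 and 2871 as deposited. Between the mutants it was 1759 higher and 2588 lower in Fvmate51-2, and 1842 and 2573 with voom, against 2453 and 1937 as deposited. The median of all genes moved by less than 0.1 on the log2 scale. The SBP counts against WT were the same under both rescalings. The MADS-box counts for both mutants were 3 higher and 2 lower with TPM and 3 higher and 3 lower with voom, against 2 and 4 as deposited. In Fvmate51-1 they were 4 higher and 3 lower with TPM and 3 higher and 4 lower with voom, against 3 and 5. In Fvmate51-2 they were 2 higher and 3 lower with TPM and 1 higher and 3 lower with voom, against 2 and 3. No member's called value changed direction under either.

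**Figure D2:**
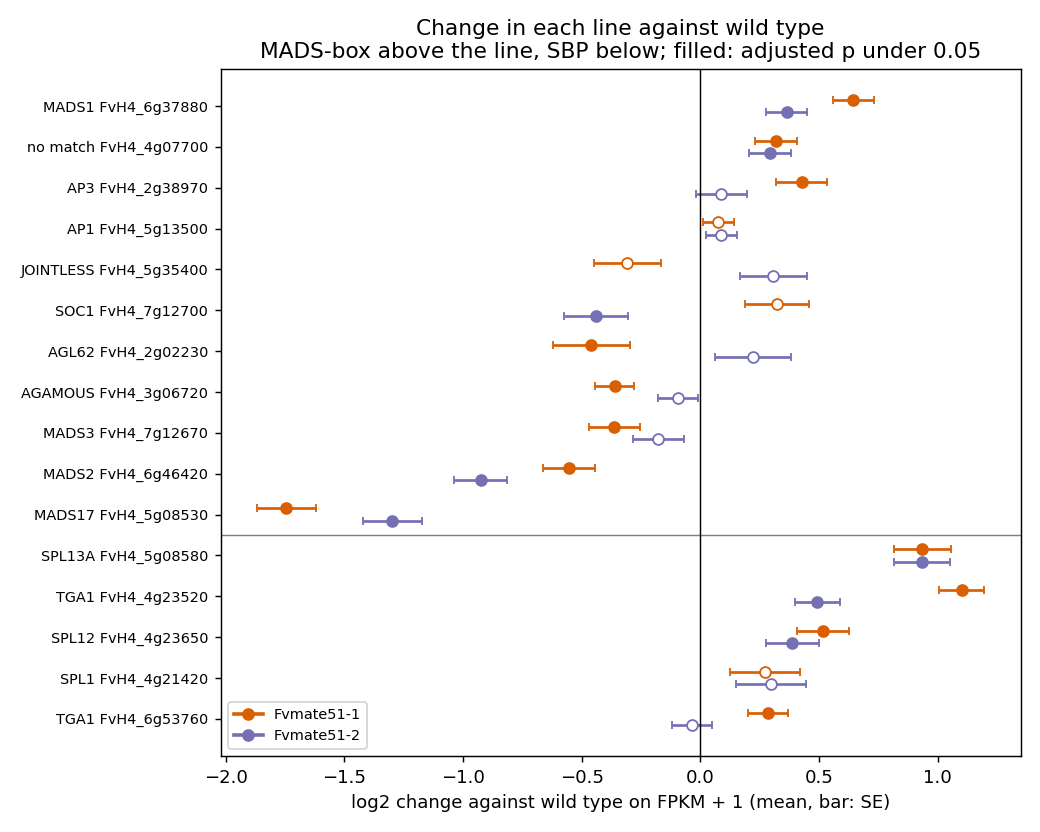
Log2 change of FPKM + 1 against WT in Fvmate51-1 (orange) and Fvmate51-2 (purple) for the 11 tested MADS-box genes (above the grey line) and the 5 tested SBP genes (below it); points are estimates, bars standard errors, filled points have an adjusted p under 0.05. The MADS17 match lies farthest to the left in both mutants, and the matches to SPL13A, SPL12 and the TGA1 match FvH4_4g23520 lie to the right in both.

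The SEPALLATA-lineage gene FvH4_6g46420, matched to grape MADS2, was lower in both mutants. Proteins of this lineage bridge other MADS-box proteins in complexes. It had 6.60, 7.16 and 5.24 FPKM in Fvmate51-1, 5.13, 4.35 and 4.45 FPKM in Fvmate51-2, and 10.1, 9.79 and 9.28 FPKM in WT. All 6 mutant libraries were below all 3 WT libraries. The means were 1.53-fold lower in Fvmate51-1 than in WT (adjusted p = 0.00342) and 2.09-fold lower in Fvmate51-2 (adjusted p = 0.000123), and the log2 change of both mutants was −0.74 ± 0.10 (SE). The decrease was larger in Fvmate51-2 than in Fvmate51-1 (log2 difference −0.37, adjusted p = 0.0284). That difference lost its call without Fvmate51-1 replicate 1 or 2 or without Fvmate51-2 replicate 2 or 3 (adjusted p 0.0884 to 0.101), and without both libraries that stood apart (0.0584). The gene lies at chromosome 6, 35419436 to 35423745, next to a match to the grape gene FUL-L, FvH4_6g46410, which stayed at or under 0.255 FPKM.

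The AGAMOUS lineage gave 2 abundant genes that moved in opposite directions in Fvmate51-1. AGAMOUS sets stamen and carpel identity, and its close relatives act in carpels, ovules and fruit. The gene matched to ginseng AGAMOUS, FvH4_3g06720, had 68.4, 68.9 and 60.0 FPKM in Fvmate51-1, 82.3, 83.9 and 71.9 FPKM in Fvmate51-2, and 83.5, 82.0 and 88.4 FPKM in WT. The Fvmate51-1 libraries were the lowest and did not overlap the others, while Fvmate51-2 overlapped WT. It was 1.29-fold lower in Fvmate51-1 than in WT (adjusted p = 0.00771, under 0.05 in all 18 alternatives), and in Fvmate51-2 it was not called (log2 change −0.09, 95% interval −0.28 to 0.09). For both mutants together the change of −0.23 had an adjusted p of 0.0325, which rose above 0.05 in 7 of 17 alternatives, up to 0.0889 without WT replicate 3. The others were TPM scaling, the block and leaving out WT replicate 1 or 2, Fvmate51-1 replicate 3 or Fvmate51-2 replicate 3. The gene was higher in Fvmate51-2 than in Fvmate51-1 (log2 difference 0.27, adjusted p = 0.0354), a call lost in 8 of 18 alternatives: TPM, voom, the block, and leaving out WT replicate 2, Fvmate51-1 replicate 1 or 3, or Fvmate51-2 replicate 1 or 2 (adjusted p 0.0503 to 0.150). On the opposite strand this gene overlaps FvH4_3g06710, a GDSL esterase match with 0.0979 FPKM on average. The sources used here do not say whether counting used strand.

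The other, FvH4_6g37880, matched to grape MADS1 and placed with SHATTERPROOF, was higher in both mutants. It had 61.5, 74.7 and 60.4 FPKM in Fvmate51-1, 55.2, 53.4 and 51.9 FPKM in Fvmate51-2, and 43.0, 41.4 and 39.8 FPKM in WT. The 3 groups did not overlap, with Fvmate51-1 highest and WT lowest. The means were 1.58-fold higher in Fvmate51-1 (adjusted p = 0.000296) and 1.29-fold higher in Fvmate51-2 (adjusted p = 0.00976) than in WT, and both calls held in all 18 alternatives. Fvmate51-2 lay below Fvmate51-1 (log2 difference −0.28, adjusted p = 0.0332), a call lost under the block and without Fvmate51-1 replicate 2 or any Fvmate51-2 replicate (adjusted p 0.0507 to 0.105).

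The remaining gene of the lineage, FvH4_5g32540, matched to AGL11 (SEEDSTICK, an ovule and seed coat gene in Arabidopsis), stayed under the filter and is named because of its values. It had 0.39, 0.37 and 0.39 FPKM in Fvmate51-1, 0.08, 0.08 and 0.04 FPKM in Fvmate51-2, and 0.21, 0 and 0.17 FPKM in WT. In a fit of 25855 genes with no filter on low values, which called 21.7% of all genes for Fvmate51-1 against WT (10.4% higher and 11.3% lower) and 18.5% for Fvmate51-2 against Fvmate51-1 (9.71% higher and 8.75% lower), it was higher in Fvmate51-1 than in WT (adjusted p = 0.0120) and lower in Fvmate51-2 than in Fvmate51-1 (adjusted p = 0.00399). These values rest on 60, 10 and 24 fragments in Fvmate51-1, Fvmate51-2 and WT.

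The highest MADS-box member with the listed domain, FvH4_5g13500, showed no detectable change. It is matched to grape AP1, whose Arabidopsis relative sets sepal and petal identity and floral meristems, and lies at chromosome 5, 7619201 to 7623454. It had 136, 128 and 133 FPKM in Fvmate51-1, 137, 132 and 131 FPKM in Fvmate51-2, and 130, 119 and 128 FPKM in WT. The 3 Fvmate51-2 libraries lay just above the WT libraries, and Fvmate51-1 overlapped WT. The log2 change of both mutants against WT was 0.08 (95% interval −0.04 to 0.21, adjusted p = 0.283). It was called in 1 contrast of 1 alternative, Fvmate51-1 against WT after TPM scaling (adjusted p = 0.0486). The other 3 listed APETALA1 and FRUITFULL genes stayed under 0.256 FPKM.

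The B class proteins APETALA3 and PISTILLATA set petal and stamen identity. Among 6 genes grouped here with this class, 2 of them matches to snapdragon defh21, only the match to grape AP3, FvH4_2g38970, passed the filter. It had 22.5, 24.7 and 22.5 FPKM in Fvmate51-1, 18.4, 18.6 and 17.4 FPKM in Fvmate51-2, and 15.5, 15.3 and 20.7 FPKM in WT. The Fvmate51-1 libraries lay above all others, and the third WT library stood above the other WT libraries and above Fvmate51-2. In Fvmate51-1 it was 1.35-fold higher than in WT (adjusted p = 0.0122, called in all 18 alternatives). In Fvmate51-2 the log2 change of 0.09 was not called, but without WT replicate 3 it was 0.22 (adjusted p = 0.0413). Both mutants together missed the threshold (log2 change 0.26, adjusted p = 0.0548) and passed it without that library (0.39, adjusted p = 0.0017). It was lower in Fvmate51-2 than in Fvmate51-1 (log2 difference −0.34, adjusted p = 0.0390), a call lost in 8 of 18 alternatives, among them leaving out any replicate of either mutant (adjusted p 0.0709 to 0.116).

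PISTILLATA proteins bind DNA together with APETALA3, yet their matches were nearly silent here. The pair matched to grape MADS9, FvH4_2g27860 and FvH4_2g27870, lie side by side on chromosome 2, 931 bases apart, and had 2 and 5 fragments over all 9 libraries. The match to grape TM6, FvH4_1g12260, a second APETALA3-type gene, had 58 fragments and at most 0.273 FPKM. These were named after their values were seen.

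The AGL6 lineage, close relatives of SEPALLATA genes, held the largest change of the families. FvH4_5g08530, matched to rice MADS17, had 0.165, 0.385 and 0.279 FPKM in Fvmate51-1, 0.852, 0.511 and 0.863 FPKM in Fvmate51-2, and 3.10, 3.12 and 3.60 FPKM in WT. It passed the filter only through its WT values. All 6 mutant libraries lay below 1 FPKM and the 3 groups did not overlap. The means were 11.8-fold lower in Fvmate51-1 (adjusted p = 2.77e-06) and 4.41-fold lower in Fvmate51-2 (adjusted p = 2.55e-05) than in WT, from 38, 104 and 535 fragments in Fvmate51-1, Fvmate51-2 and WT. Both decreases were called in all 17 alternatives that could include the gene. The remaining level was higher in Fvmate51-2 than in Fvmate51-1 (log2 difference 0.45, adjusted p = 0.0209), a call lost without replicate 1 or 3 of either mutant (adjusted p 0.0522 to 0.0786). The gene is at chromosome 5, 4916005 to 4918334.

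The other tested AGL6-lineage gene, FvH4_7g12670, matched to grape MADS3, changed less. It had 4.45, 4.72 and 5.37 FPKM in Fvmate51-1, 5.98, 5.27 and 5.67 FPKM in Fvmate51-2, and 6.69, 5.61 and 7.33 FPKM in WT. Fvmate51-1 lay below WT and Fvmate51-2 overlapped it. It was 1.35-fold lower in Fvmate51-1 (adjusted p = 0.0244), a call lost in 7 of 18 alternatives, among them leaving out WT replicate 1 or 3 or Fvmate51-1 replicate 1 or 2 (adjusted p up to 0.0938). For both mutants together the adjusted p of 0.0446 was lost in 11 of 17 alternatives, among them leaving out any single library other than WT replicate 2 or Fvmate51-1 replicate 3.

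Genes of flowering time and abscission were low and separated the mutants. SOC1 brings flowering signals together in Arabidopsis and represses flowering in woodland strawberry. Its match FvH4_7g12700 had 1.59, 1.78 and 1.39 FPKM in Fvmate51-1, 0.465, 0.634 and 0.473 FPKM in Fvmate51-2, and 1.44, 1.02 and 0.782 FPKM in WT. Fvmate51-2 lay below all other libraries, and Fvmate51-1 overlapped WT. It was 3.03-fold lower in Fvmate51-2 than in Fvmate51-1 (adjusted p = 0.00161, called in all 17 alternatives) and 2.07-fold lower in Fvmate51-2 than in WT (adjusted p = 0.0294), the second lost without WT replicate 1 or 2 or Fvmate51-2 replicate 1 or 3 (adjusted p 0.0569 to 0.0915). In Fvmate51-1 against WT the adjusted p was 0.0827, and 0.0277 without WT replicate 1. FvH4_7g12700 overlaps a fructokinase match on the opposite strand, FvH4_7g12690, with 0.0407 FPKM on average.

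JOINTLESS is needed for the abscission zone of the tomato flower stalk. Its match FvH4_5g35400 had 0.425, 0.821 and 0.616 FPKM in Fvmate51-1, 1.65, 1.10 and 1.72 FPKM in Fvmate51-2, and 1.17, 0.828 and 1.00 FPKM in WT. The mutants lay on either side of WT, overlapping it in Fvmate51-2 and not in Fvmate51-1. Neither differed from WT by the test (adjusted p = 0.112 in Fvmate51-1 and 0.124 in Fvmate51-2), but the mean in Fvmate51-2 was 2.40-fold that in Fvmate51-1 (adjusted p = 0.00798, called in all 17 alternatives).

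Only 1 type I gene passed the filter, FvH4_2g02230, matched to AGL62. In Arabidopsis AGL62 holds back cellularization of the endosperm, and in woodland strawberry AGL62 is needed for auxin production in the seed. It had 0.683, 1.21 and 0.476 FPKM in Fvmate51-1, 1.42, 1.86 and 2.26 FPKM in Fvmate51-2, and 1.56, 1.31 and 1.41 FPKM in WT. Fvmate51-1 lay below the other groups, with its second replicate above the other libraries of that mutant. The mean in Fvmate51-2 was 2.34-fold that in Fvmate51-1 (adjusted p = 0.00958, called in all 17 alternatives). The lower level in Fvmate51-1 than in WT (adjusted p = 0.0478) was lost in 11 of 17 alternatives, among them leaving out any WT replicate, Fvmate51-1 replicate 1 or 3, or Fvmate51-2 replicate 2 (adjusted p 0.0666 to 0.164). Seed markers were read from 113 listed genes for achenes, the seed-bearing dry fruits on the strawberry surface. They summed to 2617 to 3296 FPKM in Fvmate51-1, 2981 to 3014 in Fvmate51-2 and 3650 to 4085 in WT. Of the 66 tested, 8 were higher and 25 lower in Fvmate51-1 than in WT, beside 16.5% and 19.0% of all genes. In Fvmate51-2, 6 were higher and 30 lower, beside 15.3% and 15.1% of all genes. Between the mutants, 15 were higher and 23 lower in Fvmate51-2 than in Fvmate51-1, beside 15.4% and 12.2% of all genes. Without WT replicate 3, 8 were higher and 20 lower in Fvmate51-1, and 6 higher and 27 lower in Fvmate51-2. Of the 113, 13 were at 0 in all 9 libraries. The list is mixed: 20 of the 113 have an oleosin or storage protein name, and 13 are NDR1/HIN1-like, which need not mark seeds. Of those tested, 7 of 11 oleosin or storage protein genes and 7 of 11 NDR1/HIN1-like genes were lower in both mutants together. In that contrast 1 gene of each kind was higher, and of all genes 16.8% were higher and 18.1% lower. The part of achene RNA in the changes of AGL62 and of the other members was not tested.

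A gene with a MADS-box domain but neither a K-box nor a Swiss-Prot match, FvH4_4g07700, was slightly higher in both mutants. It had 8.40, 9.10 and 7.30 FPKM in Fvmate51-1, 8.09, 8.05 and 8.11 FPKM in Fvmate51-2, and 6.62, 6.39 and 6.22 FPKM in WT, with no overlap of mutants and WT. The mean was 1.29-fold higher in Fvmate51-1 (adjusted p = 0.0183) and 1.26-fold higher in Fvmate51-2 (adjusted p = 0.0286). With both mutants together it was called in all 17 alternatives. In Fvmate51-1 alone the call was lost in 3 of 18 alternatives: without its replicate 1, with only the groups compared, and without both libraries that stood apart (adjusted p 0.0539 to 0.0593). In Fvmate51-2 alone it was lost in 7 of 18: with voom, under the block, and without WT replicate 2 or 3 or any replicate of its own (adjusted p 0.0509 to 0.0812).

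**Figure D3:**
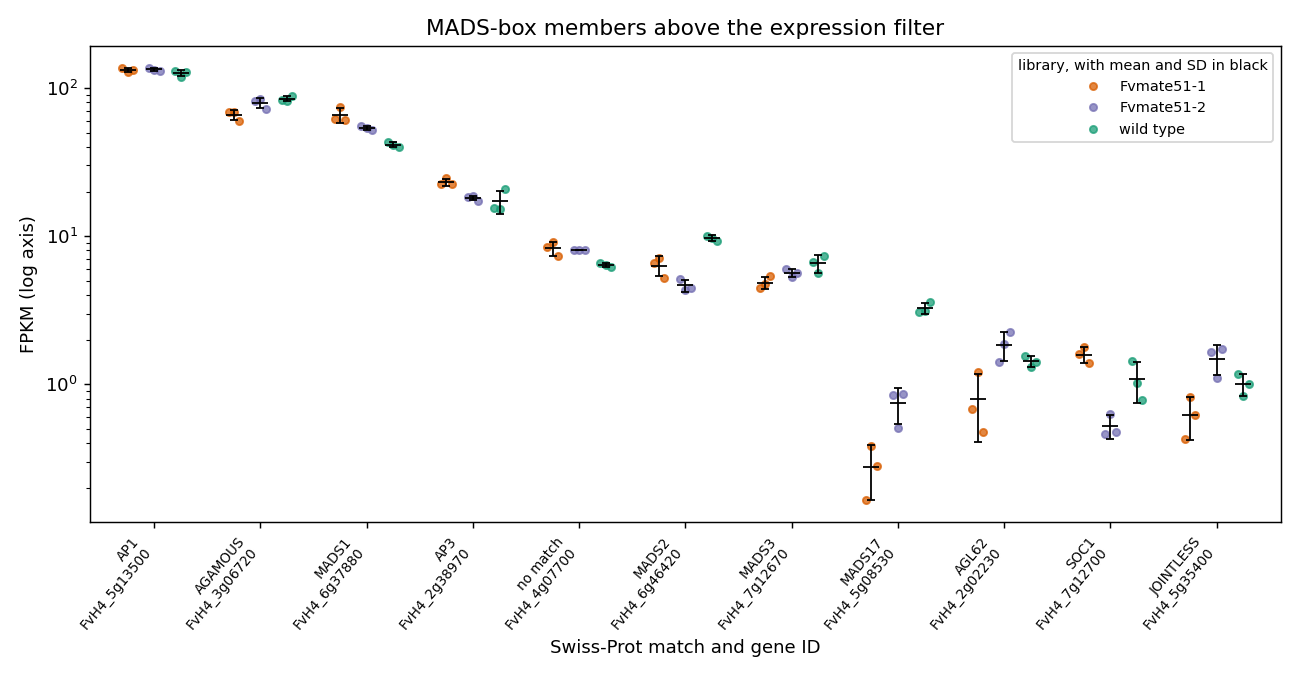
FPKM (log axis) of the 11 MADS-box genes above the expression filter, ordered by mean level, in Fvmate51-1 (orange), Fvmate51-2 (purple) and WT (green); each point is a library, black bars are the mean and SD of 3. The MADS17 match has all 6 mutant libraries below 1 FPKM and all 3 WT libraries above 3 FPKM, while the AP1 match is near 130 FPKM in every group.

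The SBP gene with the largest change of both mutants together was FvH4_5g08580 (log2 change 0.93 ± 0.10, SE), matched to SPL13A, a miR156 target in Arabidopsis. It had 8.28, 8.40 and 7.73 FPKM in Fvmate51-1, 8.10, 7.72 and 8.56 FPKM in Fvmate51-2, and 4.70, 3.73 and 3.04 FPKM in WT. The mutants overlapped each other and lay wholly above WT. The means were 2.13-fold higher in Fvmate51-1 (adjusted p = 0.0002) and 2.13-fold higher in Fvmate51-2 (adjusted p = 0.000195), in all 18 alternatives. Between the mutants the log2 difference was −0.00, with a 95% interval from −0.26 to 0.26.

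Maize TGA1 is the SBP gene behind the exposed kernel of maize, and 2 strawberry genes match it. FvH4_4g23520 had 10.3, 10.8 and 10.3 FPKM in Fvmate51-1, 7.07, 5.71 and 6.85 FPKM in Fvmate51-2, and 4.24, 4.09 and 4.72 FPKM in WT. The 3 groups were stepped, with no overlap. It was 2.41-fold higher in Fvmate51-1 (adjusted p = 1.14e-05) and 1.50-fold higher in Fvmate51-2 (adjusted p = 0.00295) than in WT, and lower in Fvmate51-2 than in Fvmate51-1 (log2 difference −0.61, adjusted p = 0.000751). All of these calls held in all 18 alternatives.

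The second, FvH4_6g53760, set only Fvmate51-1 apart. It had 20.1, 22.0 and 19.3 FPKM in Fvmate51-1, 16.2, 16.4 and 15.9 FPKM in Fvmate51-2, and 16.5, 18.3 and 15.1 FPKM in WT. Fvmate51-1 lay above the rest, and Fvmate51-2 fell inside the WT range. The mean was 1.23-fold higher in Fvmate51-1 than in WT (adjusted p = 0.0251), a call lost without WT replicate 1 or 3, without Fvmate51-1 replicate 1 or 2, without both libraries that stood apart, and in a fit of these groups only (adjusted p 0.0549 to 0.0758). The difference between the mutants was −0.32 on the log2 scale (adjusted p = 0.0167), lost without Fvmate51-2 replicate 1 or 3 (adjusted p 0.0541 and 0.0561).

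Rice SPL12 was the match of FvH4_4g23650, a low gene that was higher in both mutants. It had 2.42, 2.2 and 1.93 FPKM in Fvmate51-1, 1.91, 1.84 and 1.95 FPKM in Fvmate51-2, and 1.46, 1.24 and 0.988 FPKM in WT. Both mutants lay above WT. The means were 1.78-fold higher in Fvmate51-1 (adjusted p = 0.00536) and 1.55-fold higher in Fvmate51-2 (adjusted p = 0.0236), the second lost without WT replicate 2 or 3, any Fvmate51-2 replicate, or both libraries that stood apart (adjusted p 0.0511 to 0.0722).

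The most abundant SBP member with the listed domain, FvH4_4g21420, matched to Arabidopsis SPL1, had no detectable change. It had 36.4, 30.5 and 38.3 FPKM in Fvmate51-1, 33.9, 35.6 and 37.2 FPKM in Fvmate51-2, and 33.7, 32.4 and 21.7 FPKM in WT. Fvmate51-1 overlapped both other groups, Fvmate51-2 lay just above WT, and WT replicate 3 was well below every other library. The log2 change of both mutants against WT was 0.28 (95% interval −0.00 to 0.57, adjusted p = 0.109), and 0.09 without that library (adjusted p = 0.466). The same WT library was also the lowest WT value of FvH4_5g08580 and FvH4_4g23650. Without it the log2 change of both mutants was 0.81 in FvH4_5g08580 (adjusted p = 0.000163) and 0.37 in FvH4_4g23650 (adjusted p = 0.0198).

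**Figure D4:**
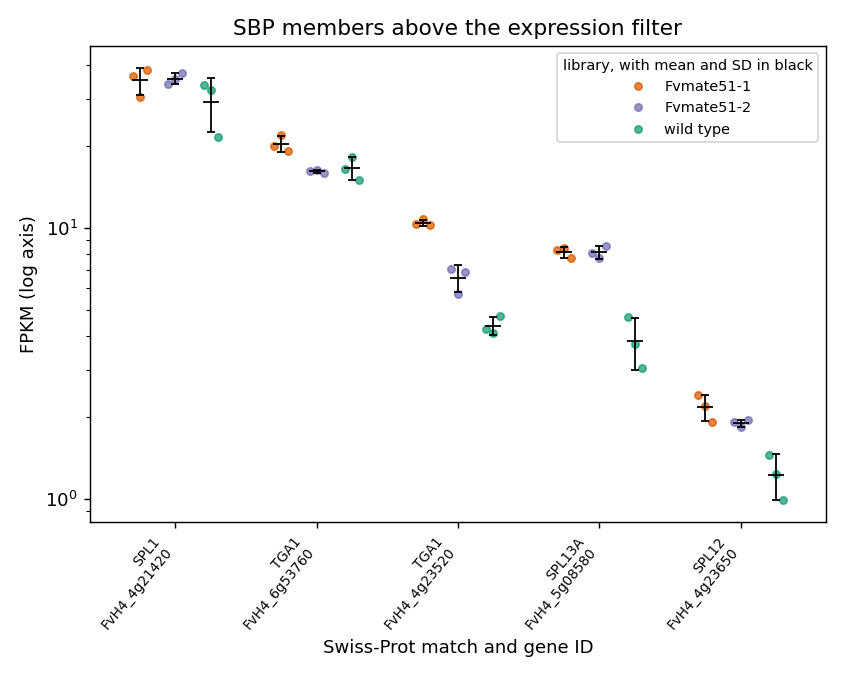
FPKM (log axis) of the 5 SBP genes above the expression filter, ordered by mean level, in Fvmate51-1 (orange), Fvmate51-2 (purple) and WT (green); each point is a library, black bars are the mean and SD of 3. For the matches to SPL13A and SPL12 and for the TGA1 match FvH4_4g23520 all 6 mutant libraries lie above the 3 WT libraries; for SPL1 the Fvmate51-1 libraries overlap both other groups and the Fvmate51-2 libraries lie just above WT.

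Below the filter, 2 of 7 SBP genes above 0 differed in the fit with no filter, which called 20.5% of all genes for both mutants together (9.79% higher and 10.7% lower) and 18.5% for Fvmate51-2 against WT (9.31% higher and 9.23% lower). FvH4_3g08880, matched to snapdragon SBP1, a protein that binds the promoter of the MADS-box gene SQUAMOSA, was at 0 in all WT libraries. It had 0.39, 0.22 and 0.40 FPKM in Fvmate51-1 (41 fragments) and 0.10, 0 and 0 FPKM in Fvmate51-2 (4 fragments). Against 3 fragments in the WT library with the highest such floor, 0.0739 FPKM, the mean in Fvmate51-1 was at least 4.54-fold higher (adjusted p = 0.00136), where the floor covers counting error only. The mean in Fvmate51-2 was under that floor, and the gene was lower there than in Fvmate51-1 (adjusted p = 0.00247). FvH4_6g26530, matched to SPL4, a short miR156 target in Arabidopsis, was lower in Fvmate51-2 than in WT (adjusted p = 0.0317), with a mean of 0.014 ± 0.0242 FPKM in Fvmate51-2 and 0.199 ± 0.116 FPKM in WT (SD, n = 3 each). These were 2 fragments in Fvmate51-2 and 32 in WT. In Fvmate51-1 it had 26 fragments, a mean of 0.176 ± 0.0324 FPKM, and Fvmate51-2 lay below that too (adjusted p = 0.0482). The other 5 low SBP genes above 0, matches to SPL6 (2 genes), SPL7, SPL8 and SPL14, were not called in any contrast and had group means between 0.116 and 0.499 FPKM. Of the 28 low MADS-box genes, the AGL11 match above was the only gene called in any contrast of this fit.

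Between the mutants, members of both families differed. In Fvmate51-2 against Fvmate51-1, 4 of 11 MADS-box genes were higher and 4 lower, and 0 of 5 SBP genes were higher and 2 lower, where 27.6% of all genes were called, 15.4% as higher and 12.2% as lower. The MADS-box genes higher in Fvmate51-2 were the matches to AGL62, JOINTLESS, MADS17 and AGAMOUS, and those lower were the matches to SOC1, MADS2, AP3 and MADS1. Both lower SBP genes were the TGA1 matches. Leaving out single libraries lowered these counts, to as few as 4 MADS-box genes and 1 SBP gene.

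Some MADS-box and SBP genes stand close together on the chromosomes. Within 50 kb of each other lay 18 pairs of genes with the domain or the family name, and 5 of the 13 SBP genes had a MADS-box gene that close. The members with the largest changes of both mutants together, 1 from each family, are such a pair: FvH4_5g08530 (MADS17 match, plus strand) and FvH4_5g08580 (SPL13A match, minus strand, chromosome 5, 4940285 to 4944052) are 21950 bases apart with 4 listed genes between them. The MADS-box gene was lower and the SBP gene higher in both mutants. The pair was picked by its changes in these data, and FvH4_5g08530 passed the filter only through its WT values. How often neighbouring genes over the whole table differ in this way was not tested. Other such pairs joined the AP1 match, which was not called as deposited, with its neighbours FvH4_5g13510 and FvH4_5g13520, an SPL6 match. Another joined the TGA1 match FvH4_4g23520 with FvH4_4g23530, 12653 bases away. MADS-box genes were on all chromosomes, from 5 on chromosome 1 to 21 on chromosome 6, while SBP genes were listed on chromosomes 3 to 7 only.

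The rule leaves out 13 genes whose Swiss-Prot name holds the words MADS-box or Squamosa promoter but that list no PF00319 or PF03110 domain. Other names of these families, such as AGAMOUS or TGA1, were not searched. The check was made after the values of these genes were seen. The most abundant, FvH4_4g23530, is matched to grape MADS4, of the SEPALLATA lineage, and exceeded every member. It had 217 ± 6.54 FPKM in Fvmate51-1, 201 ± 2.48 in Fvmate51-2 and 230 ± 11.3 in WT (SD, n = 3 each). It was lower in Fvmate51-2 than in WT (log2 change −0.19, adjusted p = 0.0468) and was not called in Fvmate51-1 (adjusted p = 0.328). FvH4_5g13510, matched to tomato EJ2, a SEPALLATA gene of the inflorescence, had 4.79 ± 0.715 FPKM in Fvmate51-1, 3.13 ± 0.196 in Fvmate51-2 and 5.13 ± 0.144 in WT, and was lower in Fvmate51-2 than in WT (adjusted p = 0.00199). The matches to Arabidopsis SPL14 and SPL7, FvH4_5g26510 and FvH4_4g16910, were not called in any contrast. FvH4_5g26510 had 43.4 ± 5.38 FPKM in Fvmate51-1, 45.9 ± 2.89 in Fvmate51-2 and 37.4 ± 9.31 in WT, which puts it above the most abundant SBP member.

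Genes known to act with these families were read from lists matched to the descriptions. LEAFY, which switches on floral MADS-box genes, had 3 listed genes and 0 tested. The PEBP list, which holds the FT-type flowering signals that raise SOC1 and AP1 in Arabidopsis, had 8 genes and 3 tested. Its FvH4_6g00090, matched to the FT-type rice protein HEADING DATE 3A, was 0 in each Fvmate51-1 library, 0.156 ± 0.0741 FPKM in Fvmate51-2 and 2.21 ± 0.311 in WT (adjusted p = 1.93e-06 in Fvmate51-1 and 5.14e-06 in Fvmate51-2). It passed the filter only through its WT values. A second HEADING DATE 3A match, FvH4_4g30710, had 1.83 ± 0.348 FPKM in Fvmate51-1, 1.39 ± 0.166 in Fvmate51-2 and 1.06 ± 0.345 in WT, and was called in Fvmate51-1 (adjusted p = 0.0286). That call was lost without WT replicate 3 (adjusted p = 0.0787) and without both libraries that stood apart (0.112).

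LEUNIG and SEUSS are co-repressors that MADS-box proteins recruit in flowers. Of their 8 listed genes 6 were tested. In both mutants together, where 16.8% of all genes were higher and 18.1% lower, 4 of them were higher and 0 lower. Their median log2 change was 0.30. Without WT replicate 3, 1 was higher and the median was 0.16, and without both libraries that stood apart 4 were higher and the median was 0.18. The SEUSS match FvH4_2g14890 had 36.8 ± 3.47 FPKM in Fvmate51-1, 36.6 ± 1.24 in Fvmate51-2 and 26.5 ± 6.58 in WT, and was called in both mutants (adjusted p = 0.0333 in Fvmate51-1 and 0.0385 in Fvmate51-2). Of 6 YABBY genes, which set the outer side of lateral organs, 1 was tested, FvH4_5g00320, with 54.8 ± 2.02 FPKM in Fvmate51-1, 83.8 ± 1.75 in Fvmate51-2 and 52.0 ± 4.32 in WT. It was higher in Fvmate51-2 than in WT (adjusted p = 6.29e-05). Of 19 TCP genes, which control cell division in growing organs, 8 were tested. In both mutants together 1 TCP gene was higher and 1 lower, beside 34.9% of all genes called.

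Ethylene synthesis genes, which ripening MADS-box proteins bind in tomato, numbered 52 by name, of which 10 were tested. In both mutants together 3 were higher and 2 lower, beside 34.9% of all genes called (16.8% higher and 18.1% lower). That contrast averages the mutants, which differed here. Against WT, 2 were higher and 2 lower in Fvmate51-1, beside 16.5% and 19.0% of all genes. In Fvmate51-2 against WT, 5 were higher and 2 lower, beside 15.3% and 15.1%. Both genes lower in the average, FvH4_6g42090 and FvH4_5g19310, were called lower in Fvmate51-1 and higher in Fvmate51-2. The names of 7 of those 10 hold the word homolog, so they need not be ethylene enzymes. The match to ACC oxidase 1, FvH4_3g01280, had 45.4 ± 1.47 FPKM in Fvmate51-1, 108 ± 2.94 in Fvmate51-2 and 45.3 ± 2.24 in WT, and was higher in Fvmate51-2 than in WT (adjusted p = 2.96e-07). FvH4_6g42090, also an ACC oxidase match, had 5.18 ± 0.306 FPKM in Fvmate51-1, 27.8 ± 0.459 in Fvmate51-2 and 17.2 ± 3.7 in WT. Its adjusted p against WT was 6.16e-06 in Fvmate51-1 and 0.00197 in Fvmate51-2. The remaining ACC oxidase match without that word, FvH4_5g19520, was not called in any contrast.

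Markers of other tissues are given beside these results, and their part in them was not tested. For 57 vascular genes the sum was 541 to 550 FPKM in Fvmate51-1, 516 to 530 in Fvmate51-2 and 426 to 464 in WT, with 10 at 0 in all 9 libraries. Of 24 vascular genes tested 6 were higher and 3 lower in both mutants together, a share near the 34.9% of all genes. For 34 genes of green tissue the sum was 80.8 to 91.8 FPKM in Fvmate51-1, 68.3 to 74.1 in Fvmate51-2 and 64.8 to 78.7 in WT. Of these, 7 were at 0 in all 9 libraries, and 0 of 7 tested were called by limma in both mutants together. In Fvmate51-1 against WT 1 was higher and 1 lower. In Fvmate51-2, 0 were higher and 1 lower against WT, and 1 was higher and 2 lower against Fvmate51-1. The 43 pollen and anther names summed to 2061 to 2297 FPKM in Fvmate51-1, 2298 to 2351 in Fvmate51-2 and 2625 to 2903 in WT, and 17 were at 0 in all 9 libraries. All 10 tested genes of that list were expansins, caught by a domain name that mentions pollen, and 0 of the other 10 names were tested.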

How the data were processed

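Poly(A) RNA from fruits was sequenced in 9 libraries, 3 per group, grouped by the genotype in the labels. The authors deposited 1 table of FPKM per gene and library, with coordinates, gene lengths, Swiss-Prot matches and Pfam domains. The submitters' processing notes name featureCounts 2.0.6, StringTie 2.2.3, HISAT2 2.2.1 and fastp, with no roles. The genome build is not given in the sources used here. Positions are as listed, and no sequence of the members was used here. Multiplied by gene length, all FPKM values of a library came out as whole multiples of the smallest unit (100% within 0.02), which gave fragment numbers. Libraries of the same group differed by more than counting noise (chi-square per gene 4.38 to 55.0 on average), so none was counted as a copy.

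Genes that reached 1 FPKM in 3 or more of the 9 libraries were tested as log2(FPKM + 1) with limma 3.58.1 in R 4.3.3 (limma-trend, 3 group means over all 9 libraries, no covariate, two-sided, Benjamini-Hochberg adjustment over all 15890 genes, called under 0.05). Standard deviations are between libraries, and folds are the group means of FPKM divided by each other. The fit was also run on simulated counts, with the same spread for every gene and no library standing apart. Because these settings differ from the data, that run does not show how the fit behaves here. The full account covers every member past the filter: 8 per family with the lowest adjusted p in both mutants against WT, 4 in Fvmate51-2 against Fvmate51-1, and all with a mean of at least 20 FPKM. Others are named for their values. Members and lists were chosen with earlier results of these data known. Partner and marker lists were word patterns on the descriptions. Alternatives were a pseudocount of 0.1, no filter, scaling by median of ratios, a filter at a mean of 5 FPKM, equal sums per library (TPM), voom on recovered fragments, the replicate number as a block, only the groups compared, and leaving out each library or both that stood apart.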

Additional observations from a re-analysis of the deposited data

Results flagged for a closer look

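The genes below were singled out because their change against WT differed between the mutants by the test of Fvmate51-2 against Fvmate51-1 itself. All values are log2 differences on FPKM + 1, Fvmate51-2 minus Fvmate51-1, with adjusted p from limma. Higher in Fvmate51-2 were the matches to AGL62 (FvH4_2g02230, 0.68, adjusted p = 0.00958), JOINTLESS (FvH4_5g35400, 0.62, adjusted p = 0.00798), MADS17 (FvH4_5g08530, 0.45, adjusted p = 0.0209) and AGAMOUS (FvH4_3g06720, 0.27, adjusted p = 0.0354). Several of the calls in this section were lost in some alternatives. The AGAMOUS and AP3 matches lost theirs in 8 of 18 each, and the MADS2 and MADS1 matches in 5 of 18 each. The MADS17 match lost its call in 4 of 17 and the TGA1 match FvH4_6g53760 in 2 of 18. The change against WT had opposite signs in the mutants for the matches to AGL62, JOINTLESS and SOC1. The same held for the TGA1 match FvH4_6g53760, whose log2 change in Fvmate51-2 was only −0.04. None of these genes was called against WT in both mutants. Lower in Fvmate51-2 were the matches to SOC1 (FvH4_7g12700, −0.76, adjusted p = 0.00161), MADS2 (FvH4_6g46420, −0.37, adjusted p = 0.0284), AP3 (FvH4_2g38970, −0.34, adjusted p = 0.0390) and MADS1 (FvH4_6g37880, −0.28, adjusted p = 0.0332). Among SBP genes both TGA1 matches were lower in Fvmate51-2, FvH4_4g23520 by −0.61 (adjusted p = 0.000751) and FvH4_6g53760 by −0.32 (adjusted p = 0.0167). The MADS17 match was below 1 FPKM in all 6 mutant libraries, and its difference rests on 104 fragments in Fvmate51-2 and 38 in Fvmate51-1.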

How the results depend on the processing

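Of 1116 values of single members under alternatives, 991 kept their direction and side of the threshold, 94 fell short of it, 8 newly passed it and 23 changed direction, all of these among values that were not called. The counts of called MADS-box genes moved in some alternatives. For Fvmate51-1 against WT the count of 8 fell to 5 with only the groups compared, where calls over all genes fell to 4297, against 5645. For Fvmate51-2 against WT the count of 5 was 3 among the 7 genes with a mean of at least 5 FPKM, and for Fvmate51-2 against Fvmate51-1 the count of 8 was 4 among them. That filter left 10219 genes, with 3271 called in Fvmate51-2 against WT (4832 of 15890 otherwise) and 2938 between the mutants (4390 otherwise). The called SBP genes in Fvmate51-2 against Fvmate51-1 numbered 4 with no filter, where 12 were tested, against 2. Leaving out each library in turn gave 4 to 5 called MADS-box genes for both mutants (6 with all libraries), 5 to 8 for Fvmate51-1 against WT, 3 to 5 for Fvmate51-2 against WT and 4 to 8 for Fvmate51-2 against Fvmate51-1. For SBP genes the ranges were 3 to 3, 3 to 4, 2 to 3 and 1 to 2. The low ends came without Fvmate51-1 replicate 1 (5), without WT replicate 2 or Fvmate51-2 replicate 1 or 3 (3), without Fvmate51-1 replicate 1 or any Fvmate51-2 replicate (4, and 5 without Fvmate51-1 replicate 2 or 3), and for SBP without Fvmate51-2 replicate 1 or 3 (1). With fewer libraries each such fit also has fewer degrees of freedom.

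Replicate numbers did not pair the samples: deviations of libraries with the same number correlated at −0.262 to 0.164. With the replicate number as a block, 5 MADS-box genes were called between the mutants and 5, 7 and 4 for both mutants, Fvmate51-1 and Fvmate51-2 against WT, and the SBP counts were as without it.

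Log2 values that changed direction were close to 0. In Fvmate51-2 against Fvmate51-1 the AP1 match FvH4_5g13500 was −0.0789 with TPM, −0.0738 with voom and −0.0122 with both libraries that stood apart left out, ranging from −0.0122 to 0.0331 over single libraries left out. The SPL1 match FvH4_4g21420 was −0.0636, −0.0608 and −0.0694 in the same settings, and ranged from −0.0694 to 0.0892. FvH4_4g07700 was 0.0399 without the libraries that stood apart and ranged from −0.102 to 0.0399, and FvH4_5g08580 was 0.0188 and ranged from −0.0364 to 0.0302. Against WT, FvH4_6g53760 in Fvmate51-2 ranged from −0.1000 to 0.0311, and in both mutants FvH4_7g12700 ranged from −0.166 to 0.0622. FvH4_5g35400 was 0.0267 with TPM and ranged from −0.0647 to 0.0606. The causes were not tested. Depth limits the members below 1 FPKM, whose values rest on few fragments.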
